A study of Mus musculus with 6 samples.

Results

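Retained intron transcripts are RNAs, spliced, partly spliced or unspliced, that keep intron sequence which the coding transcripts of the same gene remove. In RNA of cells sorted from mouse calf muscle, 14324 of the 20517 transcripts annotated as retained intron were selected on their reads, by the rule that a transcript has 10 or more estimated reads in at least 3 of the 6 libraries. The annotation holds 135181 transcripts in all, of which 64997 passed the same limit. The 14324 transcripts came from 6905 genes, and 14102 of them lie in genes annotated as protein coding. The selected set held 10180 transcripts with 10 reads in all 6 libraries, 1834 with 10 reads in 5, 1218 in 4 and 1092 in 3. The limit was reached in the 3 stimulated libraries alone by 73 transcripts and in the 3 sham libraries alone by 52. The same was not counted over all 64997 transcripts, so no difference particular to retained intron transcripts can be read from these counts. Just inside the limit, the third-highest library held 10.0 reads for a transcript of Bag2, a co-chaperone, and just outside it 9.996 reads for a transcript of Gnat1, a transducin subunit, so the border itself separates near-identical values. Of the transcripts left out, 5633 had some read and 560 had none.

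Most introns are removed while the RNA is being made. Some are removed late or not at all, and an RNA that keeps one is often held in the nucleus or, once exported, degraded because the intron brings a premature stop codon. Well-known examples lie in genes of the splicing apparatus itself, such as the SR proteins, which bind exons and recruit the spliceosome, and the CLK kinases, which phosphorylate them; nuclear pools of their intron-holding RNAs can be spliced when a cell is stressed or signalled to. Total RNA also holds precursor RNA still waiting to be spliced, which the deposited transcript values cannot tell apart from a stably retained intron.

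The cells were CD146+CD45-CD31- cells, sorted as pericytes, the mural cells of capillaries, from gastrocnemius-soleus muscle of 14-week-old male C57BL/6J wild-type mice. Electrical stimulation drove the muscles that move the foot in 3 mice, with 20 eccentric plus 20 concentric contractions (40 in all) in a bout of about 10 minutes, and tissue was taken 3 hours later. The 3 sham mice were not stimulated. Each group was stated to hold 3 mice, and each library was treated as 1 mouse.

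The libraries held 17520338 to 23709220 estimated reads. The sort could be checked against marker genes, as summed reads scaled to library size (CPM) of coding transcripts. All 12 pericyte markers had reads, with sums of 197 to 396 CPM in the stimulated and 335 to 737 CPM in the sham libraries, which overlap. All 12 endothelial markers also had reads, at 1958 to 2805 CPM in the stimulated, against 3565 to 8388 CPM in the sham libraries, with no overlap. The 7 neutrophil markers all had reads, at 96.6 to 177 CPM in the stimulated, against 38.9 to 55.7 CPM in the sham libraries, again with no overlap. The 6 leukocyte markers all had reads, at 475 to 1755 CPM, and lymphocyte markers, of which 1 of 8 was at 0, at 102 to 821 CPM; sham library 2 had the lowest sum of both and the highest endothelial sum. Fibro-adipogenic markers summed to 461.6 to 1540.5 CPM, macrophage markers to 183 to 562, satellite cell markers to 27.6 to 108 and myofibre markers to 26.0 to 111. Sham library 2 also had the highest pericyte, fibro-adipogenic and macrophage sums and the lowest satellite cell sum. The endothelial and fibro-adipogenic sums were above the pericyte sum in every library, and the leukocyte sum in all but sham library 2. The lists hold different genes, so their sums do not give shares of cells. In such bulk samples fewer cells of a type and less RNA per cell cannot be told apart. The part of these differences in the results that follow was not tested.

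The splice sites of 1 kept intron are shown here for each of 8 transcripts, because they let that intron be placed exactly. Of these transcripts, 4 had among the most reads and 4 among the smallest unadjusted p for a difference between the groups. Some hold further introns of coding transcripts whole: 5 and 2 are held in those of Hspa8, 2 each in Ncl and Mcam, and 7 in Lilr4b. Each line gives 30 bases, 5′ to 3′ on the strand of the gene, with 8 exon bases and 22 intron bases. Capitals mark the first 2 and the last 2 bases of the intron. The sequences were read from the GENCODE M21 sequence of the retained intron transcript itself, and positions are on GRCm38. The heat shock protein gene Hspa8 keeps its intron 2 at chr9:40802128-40802417 (plus strand, 290 bases) in 1 transcript and its intron 3 at chr9:40802624-40802795 (172 bases) in another. Ncl, which codes for the nucleolar protein nucleolin, keeps intron 9 of 13 at chr1:86352634-86353125 (minus strand, 492 bases), and the heat shock gene Hsp90aa1 keeps intron 2 of 10 at chr12:110695419-110695518 (minus strand, 100 bases).
Hspa8 intron 2 donor: agtttttgGTaagtcgccagcatctttgtg
Hspa8 intron 2 acceptor: aggtatgtttaatattttacAGatgccaaa
Hspa8 intron 3 donor: tcggaaagGTgggttttttttttaacaggt
Hspa8 intron 3 acceptor: cttcaatgactctcagcgacAGgcaacaaa
Ncl intron 9 donor: ttggagtgGTaagttaaagggtttattgtg
Ncl intron 9 acceptor: tgtgttatctttgtatttgcAGgtgaatca
Hsp90aa1 intron 2 donor: catcggacGTgagtataccacttggaggat
Hsp90aa1 intron 2 acceptor: atttttaatcttttcttaatAGgctctgga

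The other 4 come from transcripts whose ratio to the coding transcripts had among the smallest unadjusted p, described further on. Atp6ap1, an accessory subunit of the vacuolar proton pump, keeps intron 4 of 9 at chrX:74300772-74301323 (plus strand, 552 bases). Mcam codes for CD146, the antigen the sort selected on, and keeps intron 3 of 15 at chr9:44136946-44137038 (plus strand, 93 bases). Ifi205, an interferon-induced gene of the HIN-200 family, keeps intron 2 of 6 at chr1:174027327-174028197 (minus strand, 871 bases). Lilr4b, a leukocyte immunoglobulin-like receptor, keeps intron 4 of 8 at chr10:51481870-51482868 (plus strand, 999 bases). This intron is 1 of the 7 in a transcript of 4004 bases that is annotated as 1 exon, and so as unspliced. All 8 introns begin with GT and end with AG and lie within the coding span of their gene.
Atp6ap1 intron 4 donor: acagccagGTacagcctaggtggcatggct
Atp6ap1 intron 4 acceptor: ctctcactttttttatccatAGctccggtc
Mcam intron 3 donor: ggtcttcaGTgagtgcccccctcgtttctg
Mcam intron 3 acceptor: gttcattccccttccactgtAGaagcccca
Ifi205 intron 2 donor: atcagaagGTaacatggaacaaacaacccc
Ifi205 intron 2 acceptor: aaaaataatctccctatcctAGtaacagaa
Lilr4b intron 4 donor: gatctcagGTaagcaccttccacccataat
Lilr4b intron 4 acceptor: tctctccatcaacctctggcAGaaaccaag

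The label retained intron covered more than one structure. Of the 14324 transcripts, 4402 (30.7%) held at least 1 intron of a coding transcript of their gene whole inside an exon. A further 9489 (66.2%) held no whole intron but began or ended inside one, so the annotated RNA reaches into an intron without crossing it. In 183 neither was the case, 214 lay in genes with no protein-coding transcript, and 36 were not found in GENCODE M21. Of the 14288 that were found there, 1838 (12.9%) had a single exon and so no splice. Among the 6193 annotated retained intron transcripts left out by the read limit, 25.7% held a whole intron and 69.6% began or ended inside one. The selected transcripts had a median length of 1125.5 bases, against 709 for those left out and 2477 for protein-coding transcripts past the same limit. Longer transcripts collect more reads at the same level, so the limit itself favours length.

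Introns kept whole were short compared with their neighbours. The 6614 introns found whole inside selected transcripts, in 3043 genes, had a median length of 323 bases (interquartile range 131 to 828), against 1071 bases for the 44238 other introns of the same genes. Introns under 200 bases made up 36.3% of the kept introns and 17.1% of the others, and introns over 1000 bases 20.3% and 51.9%. Position within the gene was alike: 12.2% of the kept introns were the first of their gene and 9.16% the last, against 12.2% and 9.27% of the others. The lengths come from the annotation, so they describe which introns the catalogue lists as retained and not which were retained in these cells.

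**Figure D1:**
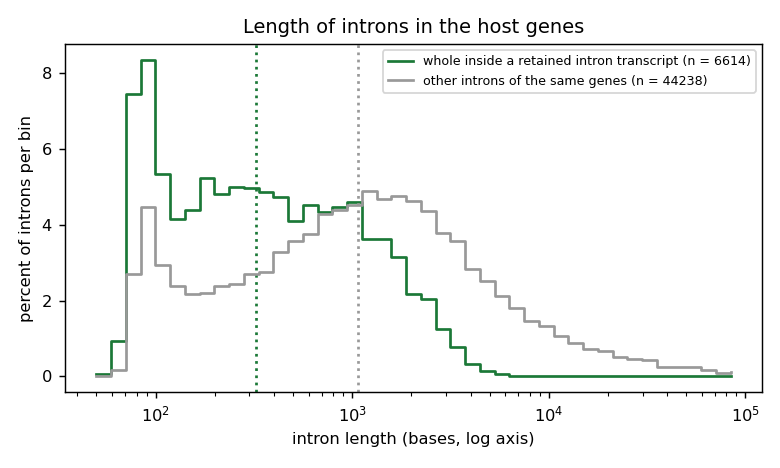
Length of introns (x, bases, log axis) as the percent of introns in each bin (y), for the 6614 introns whole inside a selected retained intron transcript (green) and the 44238 other introns of the same genes (grey); dotted lines are the medians, 323 and 1071 bases. The green curve has its peak close to 100 bases and runs out well before the grey curve does.

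Splice site letters were read for 6418 of the kept introns. Among those left out by choice were introns under 50 bases, those with fewer than 8 exon bases beside them and those of a single chromosome. GT and AG at the ends were found in 6306 of them (98.25%), GC and AG in 68 (1.06%) and AT and AC in 10. The donor letters GTAAGT, read on the gene's strand at the first bases of the intron, stood in 9.93% of them and GTGAGT in 14.2%. In the 1394 introns read from retained intron transcripts that the limit left out, the same letters stood in 7.53% and 15.7%. The 20 bases before the final AG held 73.2% ± 11.1 (SD) C or T. The median GC content of the kept introns was 50.4%, against 54.8% in the introns of the transcripts left out, whose median length was 170.5 bases.

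Reads per transcript were few. The median of the mean over 6 libraries was 50.4 reads (interquartile range 23.5 to 119), and 147 transcripts had a mean over 1000. The most reads, a mean of 28729, fell on Gm43305, a transcript at chr14:54292443-54297343 in a gene with no protein-coding transcript; its libraries held 28569, 41177 and 34688 reads in the stimulated, against 26092, 7546 and 34300 in the sham mice, so the groups overlapped. Next came transcripts of Rpl13a, a ribosomal protein of the large subunit (10609 reads), Hspa8 (9468), Ncl (9213), H2-Q7, an MHC class I gene (8870), Hsph1, Rplp2 and Hsp90aa1. MHC class I genes are close copies of each other, so the assignment of reads to H2-Q7 is uncertain. The 10 transcripts with the most reads held 2.70% to 7.20% of all reads on the selected set, lowest in sham library 2.

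The next ranking is on the TPM scale, which divides reads by transcript length, while the ranking by reads above is not corrected for length. The highest mean TPM was that of a 399-base transcript of Rplp2, an acidic ribosomal stalk protein, at 61.1 (51.5 to 78.6 over the libraries). A 456-base transcript of Hspa8 followed at 35.4 and a 240-base transcript of Ppp2r5a, a regulatory subunit of protein phosphatase 2A, at 33.5 (12.6 to 76.5). Rpl13a stood at 30.6 and Ddx5, an RNA helicase of the spliceosome, at 30.5; Rpl6, Hsp90b1, Tpm3 and Afdn were also among the highest 10. Of these only the Ddx5 transcript held a whole intron, and all were shorter than the median of the selected set. TPM of such short transcripts rests on small effective lengths and is uncertain.

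In several genes most of the reads fell on retained intron transcripts. The next 10 named transcripts have the highest share of the reads of transcript plus coding transcripts, among genes with a mean of 100 or more coding reads. The share was 91.5% to 98.0% over the 6 libraries for H2-Q7, 88.5% to 96.1% for Cd83, a maturation antigen of dendritic and B cells, and 86.7% to 93.6% for Rpl5, whose transcript includes the small nucleolar RNA Snord21. A pair of splicing regulators belonged to this set. Rsrp1, an arginine and serine rich protein, had a share of 85.4% to 95.6%, and Arglu1, a splicing coactivator known for an ultraconserved retained intron, 90.7% to 94.7%. The Arglu1 transcript had 2041, 1767 and 2553 reads in the stimulated, against 2425, 2267 and 1907 in the sham libraries, which overlap. The rest were Eef1g, Fgd4, Gramd1a, Cenpa and 4930523C07Rik, with lowest shares of 82.3% to 91.4%. These shares are of reads, which are not divided by length. On the TPM scale the Cenpa transcript had 36.9 to 89.8 and that of 4930523C07Rik 38.0 to 91.6 TPM per 100 coding TPM, below the coding transcripts. The others stayed above their coding transcripts in every library, with Gramd1a the lowest of them at 141 to 605.

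Summed over the transcripts of a gene, retained intron reads exceeded coding reads in all 6 libraries in 760 of 6447 genes with a coding partner (11.8%), and in 302 of the 5135 with a mean of 100 or more coding reads. The median gene had 24.9% of these reads on retained intron transcripts (interquartile range 12.1% to 45.1%). Among those with the most coding reads were Ncl, at 79.0% to 86.1% over the libraries, and Clk1, a kinase of SR proteins, at 74.4% to 83.6% from 7 transcripts. Rbm5, a splicing factor of the RNA-binding motif family, reached 73.4% to 82.6% from 11 transcripts. These genes were picked after their values were seen. All these values are of reads, not divided by length, and the counts were not repeated in TPM. A 19300-base transcript of Ube2d3 had 161 to 276 reads per 100 coding reads, but 10.7 to 19.2 TPM per 100 coding TPM. For the Ncl transcript with the most reads the TPM value was the higher one, at 946 to 1453 beside 359 to 599 in reads. The most transcripts in 1 gene were 13, in Cspp1 and 4932438A13Rik, and 3342 genes had 1.

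The first question the design poses is whether stimulation shifted the total. The selected transcripts took 8.84%, 8.79% and 8.61% of all reads in the stimulated, against 9.03%, 7.83% and 7.84% in the sham libraries. The highest share was in sham library 1, and the groups overlapped. The means were 8.75% ± 0.118 (SD, n = 3) and 8.23% ± 0.690, and an exact two-sided permutation test, which with 3 against 3 cannot go below 0.1, gave p = 0.4. Without sham library 1 the difference of 0.515 percentage points became 0.913, and without sham library 2 or 3 it became 0.312 and 0.319. On the TPM scale the direction was the opposite: the selected transcripts took 0.428% ± 0.0270 of TPM in the stimulated and 0.529% ± 0.113 in the sham libraries, with overlap (exact permutation p = 0.3). The protein-coding share of TPM was 1.56% ± 0.269 and 1.99% ± 0.529. The TPM shares of processed and nonsense-mediated decay transcripts were also lower on average in the stimulated group. Most TPM lies on short RNAs, so all these shares depend on the level of those RNAs. Of all reads, transcripts annotated as nonsense-mediated decay took 2.88% ± 0.0950 and 2.83% ± 0.0514. Processed transcripts, spliced RNAs with no open reading frame, took 3.39% ± 0.0959 and 3.39% ± 0.216 of reads. The protein-coding share was lower in every stimulated library, at 46.4%, 46.6% and 49.1%, than in any sham library, at 50.9%, 57.6% and 50.3% (exact permutation p = 0.1, the smallest possible). Over the 32 permutation tests run on values per library, the smallest adjusted p was 0.48.

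The second question is the balance within genes. Pooled over the host genes, the selected transcripts had 33.8, 32.8 and 30.9 reads per 100 protein-coding reads in the stimulated, against 32.2, 24.2 and 27.3 in the sham libraries. Stimulated libraries 1 and 2 lay above all sham libraries, while stimulated library 3 lay below sham library 1. The means were 32.5 ± 1.46 and 27.9 ± 4.03 (SD, n = 3; exact permutation p = 0.2). Leaving out sham library 2 reduced the difference from 4.63 to 2.77 reads. That library had the highest endothelial, pericyte, fibro-adipogenic and macrophage marker sums and the lowest leukocyte, lymphocyte and satellite cell sums. On the TPM scale the values were 65.8 ± 1.5 and 61.8 ± 4.64 TPM per 100 coding TPM (exact permutation p = 0.3). In the genes that have them, nonsense-mediated decay transcripts had 31.6 ± 1.89 and 28.5 ± 2.53 reads per 100 and processed transcripts 17.3 ± 0.891 and 15.6 ± 1.56, both higher on average in the stimulated group with overlap.

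**Figure D2:**
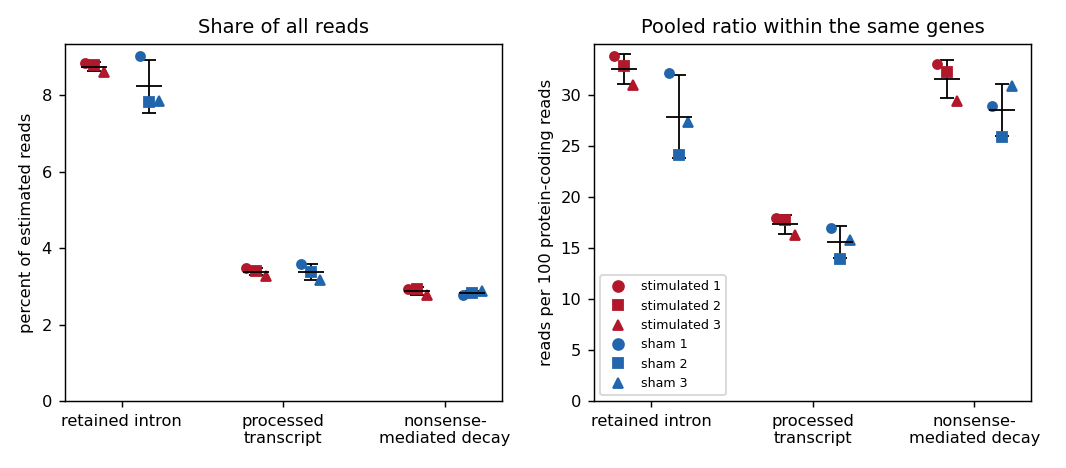
Left, percent of all estimated reads in each transcript class; right, reads of the class per 100 protein-coding reads of the genes that have it. Points are the 6 libraries (red stimulated, blue sham), and black marks are the mean and SD of 3. In both panels sham library 1 lies with the stimulated libraries for retained intron transcripts, and the groups overlap in all 3 classes.

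The median transcript had 13.8, 13.7 and 13.1 reads per 100 coding reads in the stimulated, against 13.5, 11.5 and 11.5 in the sham libraries. More reads than all coding transcripts together were seen for 1478, 1344 and 1298 transcripts in the stimulated, against 1402, 1176 and 1118 in the sham libraries. Here too sham library 1 was apart from the other sham libraries and close to the stimulated ones.

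Transcript by transcript, 13680 had a coding partner with enough reads, from 6447 genes, and 644 had none. The difference of the log2 ratio (stimulated minus sham, 0.5 added to both reads) was above 0 in 8537 of them (62.4%), with a median of 0.16. Over all 23437 transcripts of non-coding classes tested the same way it was above 0 in 60.0%, with a median of 0.14. The retained intron transcripts make up most of this whole table, so their nearness to it is partly built in. Apart from them, the difference was above 0 in 58.0% of the 6510 processed transcripts, with a median of 0.13. For the 3219 nonsense-mediated decay transcripts this was 53.9%, with a median of 0.07. Leaving out 1 library at a time moved the share of retained intron transcripts above 0 between 57.1% (without sham library 3) and 65.8% (without sham library 1), and the median between 0.10 and 0.25. Transcripts of the same gene share their coding reads, so these counts are not of independent features.

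**Figure D3:**
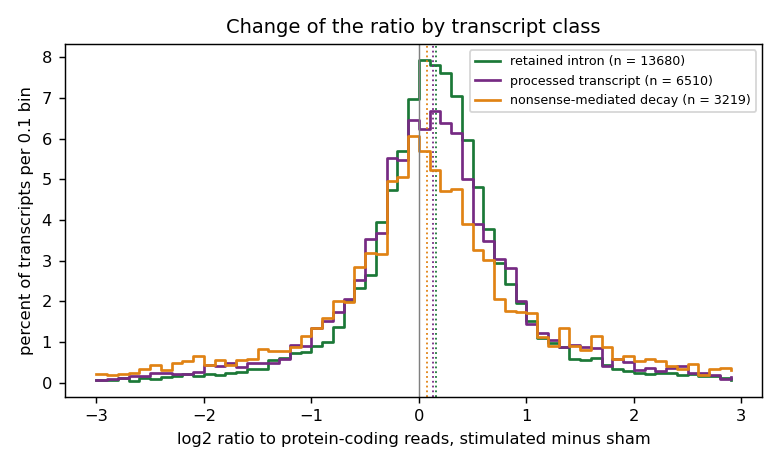
Distribution of the change in log2 ratio of a transcript to the protein-coding reads of its gene, stimulated minus sham (x), as percent of transcripts per bin of 0.1 (y), for 3 annotation classes. Dotted lines are the medians, 0.16 for retained intron, 0.13 for processed and 0.07 for nonsense-mediated decay transcripts; the 3 curves lie close together, with the medians right of 0.

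No single ratio passed the test. In edgeR's quasi-likelihood test of the class by group term, with Benjamini-Hochberg adjustment over all 23437 transcripts at 0.05, 0 of 13680 retained intron transcripts were called, against 0.0% of all tested. The smallest adjusted p was 0.618. At an unadjusted p under 0.05 there were 367 higher and 107 lower, 474 in all (3.47%). Of the whole table, which includes these transcripts, 2.64% was higher and 0.892% lower. Higher ratios also outnumbered lower ones in processed transcripts (168 and 58) and in nonsense-mediated decay transcripts (84 and 44). Groups that do not overlap were found for 1209 transcripts with a higher ratio (8.84%) and 400 with a lower one (2.92%), beside 7.87% and 3.07% of the whole table. A limma fit to the log2 ratio called 0 with either pseudocount, with 596 at an unadjusted p under 0.05 when 0.5 was added.

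The test of each transcript against all transcripts of its gene, edgeR's diffSpliceDGE, called 4 of the 14037 retained intron transcripts it tested. Of all 50758 transcripts of any class in that test, it called 87 (0.171%), a larger share. Among the calls were transcripts of Slc25a42, a mitochondrial carrier, and Cope, a coat protein subunit, lower in the stimulated group, and of Ankle1, a nuclease, higher. Each was at 0 in at least 2 libraries of 1 group: the Cope transcript had 0 reads in each stimulated library and 22.8, 28.8 and 33.6 in the sham libraries, and the Ankle1 transcript 13.8, 36.6 and 12.5 in the stimulated and 0 in each sham library. Salmon divides reads among transcripts that share exons, and its part in these zeros was not tested. The Cope and Ankle1 transcripts passed the read limit only through the group where they were high. A difference between the groups was thus built into their selection, and their calls are given as a description.

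The transcripts with the smallest unadjusted p and groups that do not overlap are described next, 6 in each direction. They were chosen for that difference, so their values are a description. The first was a transcript of Foxp1, a forkhead repressor, at chr6:99161940-99266532 (minus strand, 1351 bases), which begins or ends inside an intron. It had 175, 251 and 213 reads in the stimulated, against 46.5, 29.7 and 39.6 in the sham libraries, while the coding transcripts had 4114, 5596 and 5301 and 5337, 2682 and 5648. Every stimulated library was above every sham library for this transcript, and the coding reads overlapped. Per 100 coding reads this was 4.27, 4.50 and 4.03 against 0.881, 1.13 and 0.711, a log2 ratio difference of 2.26 ± 0.28 (SE; edgeR adjusted p = 0.618). Its own reads differed by 2.40 ± 0.30 on the log2 scale (edgeR adjusted p = 0.419), and its gene's coding reads by 0.16 ± 0.30.

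A transcript of Mtss1, a membrane-bending actin regulator, had 36.6, 37.4 and 39.2 reads per 100 coding reads in the stimulated, against 14.6, 12.3 and 17.1 in the sham libraries. One of Tob2, an antiproliferative protein of the BTG family, had 39.1, 32.8 and 28.9 against 14.0, 15.2 and 17.2. The Atp6ap1 transcript whose splice sites are given above had 13.4, 18.2 and 11.9 against 3.75, 5.60 and 5.29. In these 3 genes the coding reads were lower on average in the stimulated group, with log2 differences of -0.51, -0.27 and -0.29, so part of each ratio lies in the denominator. A transcript of Slc6a6, the taurine transporter, had 2.23, 2.78 and 2.48 against 1.04, 1.29 and 1.07 per 100. Its own reads overlapped between the groups (log2 difference 0.37), and the coding reads did not, at 2169, 2703 and 3277 against 3909, 4945 and 4203 (log2 difference -0.67), so the denominator differed more than the transcript. A transcript of Coro1a, a leukocyte actin regulator, had 3.50, 2.35 and 1.71 against 0.842, 0.645 and 0.733 per 100, on 5.4 to 141 reads; another Coro1a transcript, the one with the most reads, had 28.1, 19.5 and 22.4 against 26.8, 23.6 and 27.9.

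On the lower side the denominator differed more than the transcript in 3 of 6. The transcript of Slc7a11, the cystine-glutamate antiporter, had 270, 229 and 311 reads in the stimulated, against 336, 203 and 112 in the sham libraries, which overlap. The coding transcripts had 241, 204 and 318 reads against 94.4, 65.1 and 30.2, with no overlap and a log2 difference of 2.04 ± 0.39. Per 100 coding reads this was 355, 310 and 367 in the sham and 112, 112 and 97.6 in the stimulated libraries (log2 ratio difference -1.69 ± 0.35, edgeR adjusted p = 1.0). Ifi205 showed the same arrangement: 187, 152 and 286 retained intron reads against 203, 176 and 134, and 689, 531 and 1068 coding reads against 233, 245 and 276. In Lilr4b the retained intron transcript had 1203, 836 and 1195 reads against 648, 984 and 386. Its coding transcripts had 98.2, 91.6 and 97.8 reads in the stimulated libraries, and 0, 17.8 and 0 in the sham libraries. The retained intron transcript thus held 90.1% to 100% of the reads of these Lilr4b transcripts over the 6 libraries, in both groups. The log2 ratio difference of -3.95 ± 1.07 was -0.23 against every other transcript of the gene and -0.14 in diffSpliceDGE, and it was -8.54 without sham library 2, so it rests on few coding reads. For Slc7a11 diffSpliceDGE gave -0.66. Leukocyte and neutrophil markers differ among these libraries as given above, and their part was not tested.

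In the other 3 the retained intron transcript itself was lower. The Mcam transcript had 14.3, 24.1 and 32.2 reads in the stimulated, against 51.2, 142 and 95.3 in the sham libraries, or 2.74, 3.27 and 2.67 against 5.93, 8.06 and 9.75 per 100 coding reads. The transcript of Pam, an enzyme that amidates peptide hormones, had 5.26, 5.23 and 6.26 against 11.4, 12.1 and 10.6 per 100. The transcript of Dach1, a transcription cofactor of endothelial and other cells, had 12.1, 22 and 12.8 against 32.3, 36.5 and 31.5 per 100. The coding reads of these genes were also lower on average in the stimulated group, by log2 differences of -0.54, -0.54 and -1.29.

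**Figure D4:**
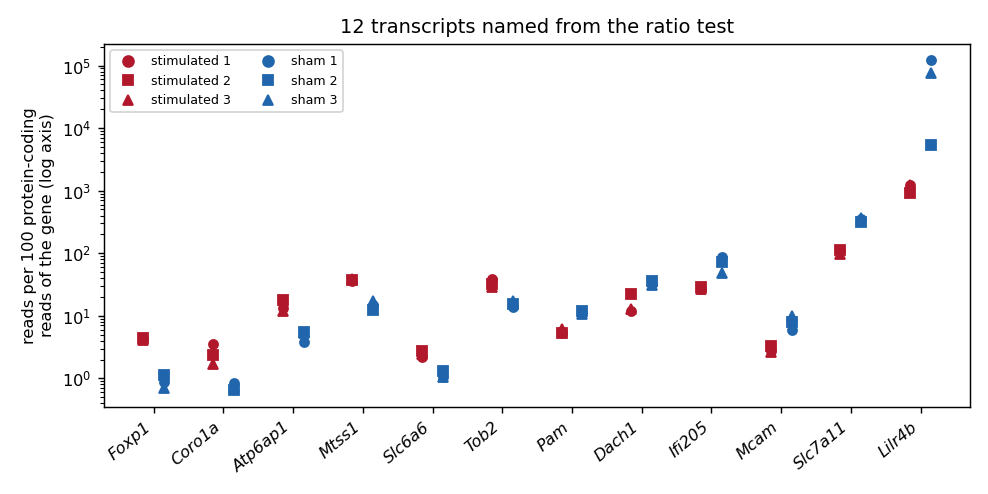
Reads of 12 retained intron transcripts per 100 protein-coding reads of their gene (y, log axis, 0.5 added to both), with 1 point per library (red stimulated, blue sham). The ratio was higher in the stimulated than in the sham group in 6 and lower in 6, chosen by unadjusted p as named in the text. The groups do not overlap in any of them because that was part of the choice; Lilr4b lies above the rest in both groups, with fewer than 100 coding reads in every library.

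Tested on their own reads, 0 of 14324 were called by edgeR (smallest adjusted p 0.419), against 0.0% of all 64997 transcripts. At an unadjusted p under 0.05 there were 263 higher (1.84%) and 242 lower (1.69%), where 1.70% of all transcripts were higher and 2.97% lower. The log2 difference was above 0 in 56.6% of the retained intron transcripts (median 0.08), in 49.3% of all transcripts and in 44.3% of protein-coding ones (median -0.07). DESeq2 called 23 of the retained intron transcripts, 8 higher and 15 lower, and 0.495% of all transcripts. All 23 had an unadjusted p under 0.05 in edgeR, and 6 of them were at 0 in at least 1 library, among them the Cope and Ankle1 transcripts. The 23 include 10 of the 12 transcripts named from this test, all but those of Lfng and Ltb. DESeq2 gave Foxp1 an adjusted p of 1.58e-07 and Dach1 1.11e-05, the 2 smallest.

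Those named from this test followed their genes in part. On the higher side, beside Foxp1, the transcript of Slc2a3, a glucose transporter, had 43.1, 39.3 and 42.5 CPM in the stimulated, against 21.8, 18.2 and 18.9 CPM in the sham libraries (log2 difference 1.09 ± 0.21, edgeR adjusted p = 0.668). A transcript of Ccnd3, cyclin D3, had 31.5, 46.8 and 32.9 CPM against 16.2, 8.28 and 15.3 CPM. Transcripts of the lymphocyte genes Lat, an adaptor of the T cell receptor, and Ltb, lymphotoxin beta, had 4.04 to 5.33 against 1.06 to 1.82 CPM and 4.91 to 8.97 against 1.89 to 3.41 CPM. Their ratios to coding reads overlapped between the groups, as did that of Lfng, a modifier of Notch receptors.

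On the lower side the transcript of Dach1 had 3.21, 5.13 and 5.78 CPM in the stimulated, against 21, 43.9 and 20.7 CPM in the sham libraries (log2 difference -2.60 ± 0.42, edgeR adjusted p = 0.565). The transcripts of Dock4, Fam13c, St5, Ric1 and Ctnnb1 followed, with log2 differences of -1.88, -2.18, -1.56, -1.08 and -1.21. Dock4 activates small GTPases and Ctnnb1 is beta-catenin. The coding reads of the same genes differed by -1.15, -2.20, -1.79, -1.11 and -1.10. Except for Dach1 and Dock4, the ratio of retained intron to coding reads overlapped between the groups in these genes. The endothelial marker sums separate the groups in the same direction, and their part was not tested.

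Across all 13680 transcripts with a partner, the sign of the log2 difference matched that of the host gene's coding reads in 62.8%, and Pearson's r was 0.33, against 62.3% and 0.35 in processed transcripts and 55.2% and 0.07 in nonsense-mediated decay transcripts. The points share libraries, and several share a gene. By themselves the coding reads of host genes gave 0 calls of 6447 in edgeR, where 0.00616% of all 16244 genes were called (1 gene, Il1rn, the interleukin 1 receptor antagonist, which hosts no selected transcript and was named for being that 1 call). At an unadjusted p under 0.05 there were 171 host genes higher (2.65%) and 442 lower (6.86%), where 2.64% of all genes were higher and 6.46% lower. DESeq2 called 101 host genes, 22 higher and 79 lower, and 1.52% of all genes. Without sham library 2, edgeR called 2 host genes, Hmox1, heme oxygenase, and Lilr4b.

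In genes known for regulated intron retention the pooled ratios were above that of the whole set in both groups. Pooled over a list, splicing kinases of the CLK, DYRK and SRPK families had 94.3 to 119 retained intron reads per 100 coding reads over the 6 libraries, or 197 to 249 TPM per 100 coding TPM. SR proteins and related regulators had 45.9 to 57.4 reads per 100, hnRNP proteins 35.6 to 47.6 and core spliceosome proteins 37.6 to 49.0. All the selected transcripts together had 24.2 to 33.8. The median transcript did not follow the pooled order throughout: it had 19.3 reads per 100 coding reads in both the kinase and the SR list, but 9.31 in the hnRNP and 10.9 in the core spliceosome list, below the 11.5 to 13.8 of the whole set. Factors of nonsense-mediated decay and the exon junction complex had 18.5 to 22.1, ribosomal proteins 20.3 to 34.5, and endothelial and mural genes 8.67 to 10.3. Per 100 coding TPM, the SR list had 147 to 174, hnRNP proteins 72.1 to 102 and core spliceosome proteins 95.7 to 152. All the selected transcripts together had 58.5 to 67.3 TPM. Decay and exon junction factors had 40.7 to 61.7, ribosomal proteins 21.1 to 36.6 and endothelial and mural genes 32.3 to 40.8. The order of these lists differs between reads and TPM, and it describes these libraries.

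**Figure D5:**
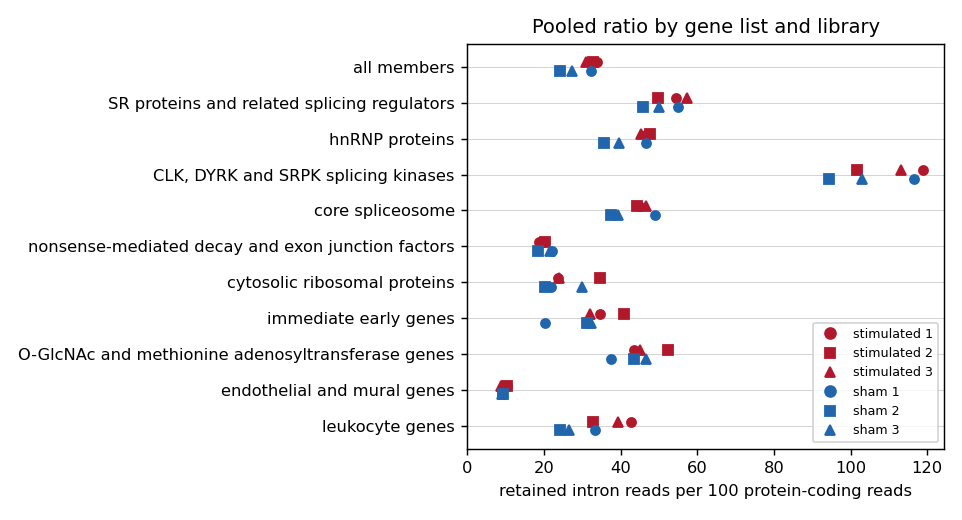
Retained intron reads per 100 protein-coding reads (x), pooled over the selected transcripts of each gene list (y), with 1 point per library (red stimulated, blue sham). The splicing kinases lie between 94.3 and 119 and the endothelial and mural genes between 8.67 and 10.3; the libraries of the 2 groups overlap in every list shown.

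None of the transcripts in these lists passed the ratio test (0.0% of the whole table did). Among the 33 transcripts of splicing kinases the ratio difference was above 0 in 22, with a median of 0.08, beside 60.0% and 0.14 in the whole table. Without stimulated library 1 this was 17 of 33 and 0.02, without stimulated library 2 the median was 0.24, and without sham library 1 it was 0.17. The Clk1 transcript with the most reads, which keeps 3 introns, had 220, 146 and 170 reads per 100 coding reads in the stimulated, against 190, 121 and 150 in the sham libraries, so the groups overlapped. Clk4 had 60.8 to 88.6 and Clk3 79.4 to 129. SR proteins and related regulators were above 0 in 57 of 87 transcripts (median 0.12), a median that was 0.00 without stimulated library 1, 0.03 without sham library 2, 0.21 without stimulated library 2 and 0.17 without sham library 1. A transcript of Srsf3, which autoregulates its own splicing, had 348, 280 and 254 against 331, 173 and 283 reads per 100, and 1 of Srsf5, another SR protein, had 88.1, 66.0 and 85.4 against 66.5, 41.8 and 63.3. For Srsf5 only 1 stimulated library lay within the sham range.

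Of the hnRNP transcripts 39 of 64 were above 0 (median 0.26), a median that was 0.09 without stimulated library 2, 0.13 without sham library 2 and 0.12 without sham library 3. The transcript of Hnrnpa2b1 with the most reads, which keeps 4 introns, had 107, 97.2 and 98.3 reads per 100 in the stimulated, against 107, 47.7 and 71.8 in the sham libraries, which overlap. Core spliceosome genes were above 0 in 34 of 77 (median -0.02), a median that changed sign without sham library 1 (0.10) or without stimulated library 2 (0.09). The Sf3b1 transcript with the most reads, of the U2 snRNP subunit, stayed between 29.1 and 35.9 per 100 in all libraries. Decay and exon junction factors were above 0 in 10 of 23 (median -0.12), and this sign also turned without sham library 1 (0.24) or stimulated library 2 (0.07). Transcripts of ribosomal protein genes were above 0 in 45 of 70 (median 0.19).

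The immediate early genes, switched on within minutes of a stimulus, had retained intron transcripts past the limit in only 6 of 24 genes. These 8 transcripts had 6 differences above 0 and a median of 0.62, which was 0.36 without sham library 1. The transcript of Nr4a1, an orphan nuclear receptor, had 6.32, 4.49 and 4.31 reads per 100 coding reads in the stimulated, against 2.18, 2.97 and 2.60 in the sham libraries, with no overlap (log2 ratio difference 0.95 ± 0.28, edgeR adjusted p = 1.0). Fosb, a partner of Jun, had 73.8, 79.4 and 62.2 against 34.5, 44.7 and 63.5 for a transcript that keeps 3 introns. Dusp1, a phosphatase of MAP kinases, had 64.0, 105 and 79.5 against 34.2, 63.8 and 62.9, groups that barely separate. The coding reads of Nr4a1, Fosb and Dusp1 were lower on average in the stimulated group, with log2 differences of -0.78, -1.34 and -0.66. The pooled ratio of the list was 34.6, 41.0 and 31.9 against 20.2, 31.3 and 32.3.

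Ogt, which adds O-GlcNAc to proteins and has a well-known detained intron, had 56.0, 61.6 and 57.2 retained intron reads per 100 coding reads in the stimulated, against 54.9, 53.1 and 45.6 in the sham libraries for the transcript with the most reads (log2 ratio difference 0.19 ± 0.24, edgeR adjusted p = 1.0). The groups do not overlap, but stimulated library 1 and sham library 1 lie close together. With Mat2a and Mat2b, of S-adenosylmethionine synthesis, 7 of 10 transcripts were above 0 (median 0.12). Without sham library 1 this was 5 of 10 and 0.03, and leaving out any other library gave medians of 0.15 to 0.23.

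Leukocyte genes had 20 of 24 transcripts above 0 and a median of 0.45, which stayed between 0.35 and 0.51 with any 1 library left out. The pooled ratio was 42.7, 32.9 and 39.3 per 100 in the stimulated, against 33.2, 24.3 and 26.4 in the sham libraries; only sham library 1 lay within the stimulated range. The transcript with the most reads, of Ptprc, which codes for CD45, had 33.6, 20.3 and 28.6 against 18.5, 25.6 and 14.7. The 24 transcripts come from 8 genes, 1 of them Coro1a, which was named above for its difference. Endothelial and mural genes were above 0 in 18 of 25 (median 0.27, and 0.15, 0.09 and 0.03 without stimulated library 1, stimulated library 2 and sham library 3). In their own reads the retained intron transcripts of this list had a median log2 difference of -0.89, against 0.81 in the leukocyte list. The lists were thus opposite in reads though both ratio medians were above 0. A transcript of Egfl7, an endothelial secreted factor, had 43.1, 45.5 and 35.8 against 21.2, 29.0 and 32.2, with no overlap, while its coding reads were lower on average in the stimulated group (log2 difference -1.23). That of Col4a2, a basement membrane collagen, had 10.6 to 12.9 against 10.4 to 12.3.

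The Hspa8 transcript that keeps 5 introns and includes the small nucleolar RNAs Snord14c, Snord14d and Snord14e was the one with the most reads whose groups did not overlap. It had 10479, 12624 and 11866 reads in the stimulated, against 8018, 4581 and 9242 in the sham libraries, or 32.1, 37.3 and 27.4 against 17.9, 18.9 and 20.9 per 100 coding reads (log2 ratio difference 0.74 ± 0.23, edgeR adjusted p = 1.0). The second Hspa8 transcript, which keeps 2 introns and no small RNA, had 15.8, 17.5 and 12.3 against 13.1, 7.88 and 15, which overlap. Over the whole set, 146 transcripts (1.02%) include a small RNA gene within an exon, 85 of them a small nucleolar or Cajal body RNA, against 0.565% of the annotated retained intron transcripts left out. Small nucleolar RNAs guide the modification of other RNAs, and most are cut from introns of such host genes.

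Reads of these 146 made up 0.260%, 0.282% and 0.251% of all reads in the stimulated, against 0.225%, 0.176% and 0.237% in the sham libraries. The groups did not overlap (exact permutation p = 0.1, the smallest possible, and 0.48 adjusted over 32 tests). Their pooled ratio was 23.6, 27.0 and 21.4 against 20.2, 17.2 and 19.8 reads per 100. Reads of the mature small RNA can be assigned to the host transcript, and their part was not tested. Transcripts annotated as snoRNA took 1.18%, 1.10% and 0.731% against 0.776%, 0.264% and 0.788% of reads. Without the 146 transcripts the pooled ratio of the rest still differed by 4.43 reads per 100.

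The size of the retained piece also went with the ratio on the read scale. Among transcripts with 50 to 200 retained bases the median was 9.96 reads per 100 coding reads (n = 1151), and with 1000 or more it was 37.2 (n = 1383). Divided by length, on the TPM scale, these medians were 32.2 and 27.1 TPM per 100 coding TPM, with 22.8 and 24.2 in the classes between. The ratio difference was above 0 in 56.9% of the first class and 66.9% of the last.

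Setd5, a chromatin protein, has 5 selected transcripts; the one with the most reads had 43.2, 32.5 and 39.3 per 100 coding reads in the stimulated, against 29.2, 33.5 and 29.2 in the sham libraries, which overlap. The single selected transcript of Aaed1 had 6.62, 10.4 and 4.38 against 3.30, 2.02 and 5.28, on 16.7 to 55.4 reads.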

How the data were processed

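Total RNA of 6 libraries, 3 stimulated and 3 sham, was prepared with a stranded low-input kit, per the labels' protocols; titles gave the groups. Salmon 0.8.2, Trimmomatic 0.36 and bcl2fastq 2.17.1.14 are listed beside R 3.5.1, with edgeR and the build GRCm38, per the submitters' processing notes. Which annotation release was used is not given in the sources used here. For each library the authors deposited a transcript table of TPM and estimated counts (Salmon), which divide reads among transcripts sharing exons, so a read is not placed on an intron. A deposited gene table was not used. Protein-coding transcripts took 1.26% to 2.44% of TPM, most of which lies on short RNAs. TPM is therefore used within genes or for single transcripts, except where shares of TPM are given beside the shares of reads.

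The members, gene lists and tests were chosen with earlier results of these data known. Structures came from GENCODE M21, matched by 99.8% of the transcripts. Estimated counts were rounded to whole numbers; CPM values were scaled by TMM. Reads were tested with edgeR 4.0.16 (quasi-likelihood, robust; R 4.3.3), the ratio as class by group with library as a term, over every transcript with 10 reads in 3 libraries, Benjamini-Hochberg at 0.05. SE is that of the log2 difference. Reads per 100 coding reads of single transcripts have 0.5 added to both. Values per library were compared by exact two-sided permutation tests. Replicates differed by a chi-square of 20.6 to 56.6 per transcript, so all were counted.

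Named transcripts were the 10 highest in TPM, in reads and in share; 6 per direction by unadjusted p in each test, with a mean of 50 reads and groups that do not overlap; up to 6 per list; those nearest the limit; and Setd5 and Aaed1. The text names some; a few that the rule takes are not reported here. Rbm5, Il1rn, Hmox1 and the transcripts called by diffSpliceDGE were named after their values were seen. Alternatives were DESeq2 1.42.0, limma 3.58.1, diffSpliceDGE, RLE factors, other limits, denominators and pseudocounts, a replicate block and each library left out; leaving out small RNA hosts, and leaving out libraries for the lists, were added after the data were examined.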

Additional observations from a re-analysis of the deposited data

How the results depend on the processing

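The differences in the share of reads and the pooled ratio kept their sign under the alternatives listed for them; the share of TPM, a separate measure, differed by -0.101 percentage points. The share difference of 0.515 percentage points was 2.48 when the denominator was the reads of the host genes, and 0.312 to 0.913 with each library left out; the pooled ratio difference of 4.63 was 2.77 to 6.77, and the median change of the log2 ratio 0.10 to 0.25. Calls depended on the tool: DESeq2 called 23 transcripts on reads and 101 host genes where edgeR called 0, and diffSpliceDGE called 4 on the ratio. Leaving out single libraries gave 0 calls on reads and on the ratio and 0 to 2 host genes, the 2 without sham library 2. The cause was not tested. All other alternatives gave 0 calls.

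The same replicate numbers occur in both groups, but nothing ties equal numbers together: correlations of the deviations of same-numbered libraries were 0.16, -0.09 and -0.04, and only the libraries numbered 1 correlated best with each other. With the number as a replicate block, 0 transcripts were called on reads, 0 on the ratio and 0 host genes, and the median change of the log2 ratio was 0.16.

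With 3 libraries a group, exact tests cannot go below 0.1. A median of 50.4 reads per transcript limits single ratios, and reads shared among overlapping transcripts add error that counts do not show.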
